A study of Mus musculus with 3 samples.

Results

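The genes described here are 8 genes whose protein products are stored in the granules of neutrophils, out of 32285 genes listed for each library. Myeloperoxidase (Mpo), neutrophil elastase (Elane), proteinase 3 (Prtn3) and cathepsin G (Ctsg) belong to the primary or azurophil granules. Cathelicidin (Camp), neutrophilic granule protein (Ngp), lactoferrin (Ltf) and lipocalin 2 (Lcn2) belong to the secondary or specific granules. The 8 genes were taken by name, and the division into primary and secondary genes followed their known granule. Since they were chosen with results of these libraries known, their levels are given as a description, with no test.

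Granule proteins are made in waves while a neutrophil matures in the bone marrow. Transcripts of the primary granule proteins are made in promyelocytes and in shared granulocyte and monocyte precursors, and are shut off before the secondary granule genes are switched on in myelocytes and metamyelocytes. Mature neutrophils keep the stored proteins but little of the messenger RNA, so a barcode rich in Mpo and Elane transcripts, without Camp and Ltf, is the known picture of an early myeloid precursor.

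The study profiled single CD45+ cells, the leukocytes, from the aorta of ApoE-/- C57BL/6J mice with droplet 3′ sequencing. There was 1 library in each of 3 groups: an untreated group labelled Ctrl, a group labelled HHcy whose drinking water held homocysteine (1.8 g/L, 4 weeks), and a group labelled WD on a western diet (4 weeks). Loss of apolipoprotein E, which clears lipoprotein remnants from blood, was shared by all 3 groups, so the control is itself a model prone to atherosclerosis. The number of mice behind each library is not given in the labels.

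With 1 library in a group no difference between groups has a replicate check, and no test was made. Ratios carry exact 95% intervals that cover counting error alone and not the spread between mice. Both ratios in each pair share the Ctrl library. The 3 libraries held 7512, 9753 and 8557 barcodes (Ctrl, HHcy and WD), and 5426, 6434 and 5340 were used after quality limits and the removal of multiplets, with a median of 7643, 6780.5 and 8204.5 unique molecular identifiers (UMIs, each 1 captured transcript). Ptprc, which encodes CD45, was detected in 93.4%, 93.5% and 90.7% of the barcodes used. Apoe, the gene the label says is lost, had 1090 UMIs in Ctrl, 39368 in the library labelled HHcy and 1801 in WD, or 16.3, 374 and 19.3 CPM, UMIs scaled to a common total of 1000000. That level goes against the genotype label of the library labelled HHcy, and its part in the results below was not tested. Of 17164 distinct barcode sequences among those used, 34 occurred in more than 1 library, and the 46 barcodes rich in primary transcripts described below were 46 distinct sequences.

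Upstream sequences are shown for 4 members: Prtn3 and Elane, neighbours on chromosome 10 of which Prtn3 was also found in a macrophage/monocyte-like cluster with 0 Elane UMIs, and, for contrast, the secondary genes Ngp and Ltf on chromosome 9. Prtn3 (ENSMUSG00000057729) lies at chr10:79874476-79883174 on the plus strand and Elane (ENSMUSG00000020125) at chr10:79886247-79888215 on the plus strand, both with up to 5 annotated exons, and 3072 bases separate the end of the first from the start of the second (GRCm38, GENCODE vM21). The sequences are the exon-free parts of the 250 bases before each RefSeq start (GRCm38.p6), written 5′ to 3′ on the gene's strand. Capitals mark GAGGAA, the core of sites for the myeloid factor PU.1, in the primary genes, and TTNNGNAA or its reverse TTNCNNAA, a pattern of C/EBP sites, in the secondary genes.
Prtn3, chr10:79879417-79879613, plus strand: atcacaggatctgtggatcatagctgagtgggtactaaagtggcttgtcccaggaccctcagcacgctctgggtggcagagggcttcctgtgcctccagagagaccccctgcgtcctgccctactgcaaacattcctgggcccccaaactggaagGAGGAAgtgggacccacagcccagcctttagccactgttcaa
Elane, chr10:79886062-79886246, plus strand: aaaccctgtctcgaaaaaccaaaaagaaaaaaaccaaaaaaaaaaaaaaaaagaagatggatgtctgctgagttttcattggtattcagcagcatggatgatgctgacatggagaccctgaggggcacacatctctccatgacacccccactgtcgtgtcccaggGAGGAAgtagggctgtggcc
Ngp, chr9:110419558-110419746, plus strand: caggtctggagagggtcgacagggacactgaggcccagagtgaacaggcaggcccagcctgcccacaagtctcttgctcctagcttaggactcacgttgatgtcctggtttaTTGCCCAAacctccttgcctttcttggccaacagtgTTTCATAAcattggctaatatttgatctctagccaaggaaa
Ltf, chr9:111019042-111019270, plus strand: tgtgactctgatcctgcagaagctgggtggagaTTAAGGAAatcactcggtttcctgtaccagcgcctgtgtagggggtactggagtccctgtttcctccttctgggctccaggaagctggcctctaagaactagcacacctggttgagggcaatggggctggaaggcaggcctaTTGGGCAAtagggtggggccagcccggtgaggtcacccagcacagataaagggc
GAGGAA on either strand was present in the 250 bases of all 4 primary genes and of Ltf and Lcn2, against 23.3% of 32851 RefSeq promoters. The longer GAGGAAGT, searched after the sequences were seen, was present in Mpo, Elane and Prtn3 and in no secondary gene, against 2.44% of promoters. The C/EBP-type pattern was found 3 times in Ngp, 2 times in Ltf and 1 time in Lcn2, in none of the 4 primary genes nor in Camp, and in 36.8% of promoters. These matches describe letters in short windows and say nothing of binding.

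The remaining members are at separate places in GRCm38. Mpo (ENSMUSG00000009350) spans chr11:87793581-87804413 on the plus strand, and Ctsg (ENSMUSG00000040314) spans chr14:56099881-56102574 on the minus strand. Camp (ENSMUSG00000038357, chr9:109847379-109849617, minus strand), Ngp (ENSMUSG00000032484, chr9:110419747-110423012, plus strand) and Ltf (ENSMUSG00000032496, chr9:111019271-111042767, plus strand) lie within 1 stretch of chromosome 9, with 570129 bases between Camp and Ngp and 596258 between Ngp and Ltf. Lcn2 (ENSMUSG00000026822) spans chr2:32384633-32388252 on the minus strand. Prtn3 overlaps Plppr3 on the opposite strand, which had 115, 137 and 123 UMIs in the 3 libraries against 1706, 1463 and 2956 of Prtn3.

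Transcripts of Mpo, Elane and Ctsg sat in a handful of barcodes, while Prtn3 and the secondary genes were spread over more. Mpo had 878 UMIs in Ctrl, 500 in the library labelled HHcy and 1799 in WD, and the 10 highest barcodes held 94.4%, 94.0% and 94.0% of them. Elane had 525, 422 and 761 UMIs and Ctsg had 468, 293 and 769. Prtn3 had 1706, 1463 and 2956 UMIs in 239, 225 and 290 barcodes, and the 10 highest held 63.8%, 53.7% and 61.7%. Camp, by contrast, had 16568, 15685 and 13715 UMIs, of which the 10 highest barcodes held 39.5%, 38.7% and 46.6%. Lcn2 was detected in 5.01%, 13.1% and 8.67% of barcodes and Camp in 7.32%, 7.01% and 7.60%, so Camp was the more widely spread in Ctrl and Lcn2 in the other two libraries.

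A barcode was counted as rich in a group of genes when it had 10 or more UMIs of that group over at least 2 of its 4 genes. By that rule 46 of 17200 barcodes were rich in primary transcripts and 365 in secondary transcripts (36 and 182 without the library labelled HHcy). Of these, 40 were rich in primary transcripts alone, 359 in secondary transcripts alone and 6 in both. The 6 made up 13% of the barcodes rich in primary transcripts and 1.64% of those rich in secondary transcripts, while 2.12% of all barcodes were rich in secondary transcripts. Just outside the limit were 18 barcodes with 5 to 9 primary UMIs, and just inside it 12 with 10 to 14. A further 48 barcodes reached 10 UMIs through 1 gene alone, which was Prtn3 in 47 of them.

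**Figure D1:**
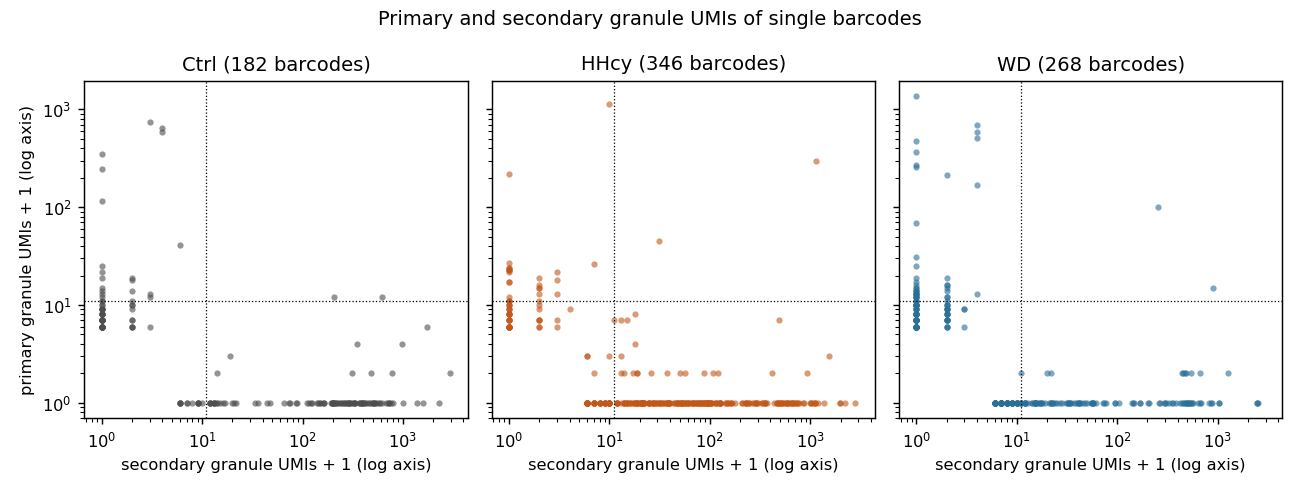
Each point is 1 barcode with 5 or more primary or secondary granule UMIs, with secondary UMIs plus 1 across and primary UMIs plus 1 upwards, both on log axes, in 1 panel for each library. Dotted lines mark 10 UMIs, and points above the horizontal line that reach it through 1 gene alone are not counted as rich. Most points lie along the axes, and 6 barcodes rich in both stand in the upper right of the panels.

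Barcodes rich in primary transcripts were 16 of 5426 in Ctrl (0.295%, exact interval 0.169% to 0.478%), 10 of 6434 in the library labelled HHcy (0.155%, 0.0746% to 0.286%) and 20 of 5340 in WD (0.375%, 0.229% to 0.578%). On the log2 scale the share in the library labelled HHcy stood at -0.92 against Ctrl (-2.06 to 0.21) and that in WD at 0.34 (-0.60 to 1.29), so neither difference was detectable at this depth. Thinning turned the first to 0.08, and a limit of 0.1% of a barcode's UMIs turned the second to -0.08. These barcodes held 79.6%, 68.4% and 82.2% of all primary UMIs. Barcodes rich in secondary transcripts made up 1.82%, 2.84% and 1.55% of the 3 libraries. Against Ctrl the log2 ratio of that share was 0.64 in the library labelled HHcy (0.29 to 0.99) and -0.23 in WD (-0.65 to 0.19). The Ctrl, HHcy and WD libraries had 10.1%, 21.1% and 20.4% of barcodes removed as multiplets, and the share of secondary-rich barcodes in the library labelled HHcy moved to 4.12% when they were kept.

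The 46 barcodes were divided in 2. In 28 of them Mpo, Elane and Ctsg together reached 10 UMIs, a division made after the values were seen: 9 in Ctrl, 7 in the library labelled HHcy and 12 in WD. In the other 18 (7, 3 and 8) Prtn3 was the highest primary gene in 17. Of these 18, 12 had 10 or more UMIs of Ly6c2, a surface gene of monocytes. Both traits were common in the 28 too. There Prtn3 was the highest primary gene in 17, and 17 had 10 or more Ly6c2 UMIs. The 28 barcodes held 77.1%, 65.8% and 80.6% of all primary UMIs. By gene they held 94.1%, 93% and 96.3% of Mpo, 92.4%, 91.9% and 96.2% of Elane and 85.3%, 72.4% and 95.4% of Ctsg, but 61.4%, 47.7% and 63.1% of Prtn3.

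The level of the 4 enzymes varied widely among the 28 barcodes. Mpo ranged from 11 to 250 UMIs in the 9 Ctrl barcodes (median 26), from 0 to 254 in the 7 of the library labelled HHcy (median 7) and from 15 to 355 in the 12 of WD (median 117.5). Elane ranged from 0 to 147 (median 25), from 3 to 254 (median 19) and from 0 to 206 (median 49). Prtn3 ranged from 2 to 264 (median 121), from 10 to 455 (median 25) and from 11 to 559 (median 125.5). Ctsg ranged from 2 to 103 (median 38), from 0 to 171 (median 3) and from 3 to 239 (median 41). The ranges of the 3 libraries overlapped for each gene, and the median count of each was lowest in the library labelled HHcy. The median depth of these barcodes was 24476, 14783 and 25844 UMIs. As a share of a barcode's UMIs, the 4 genes summed had medians of 1.17%, 1.30% and 1.25%, highest in the library labelled HHcy. The median there rests on 7 barcodes, of which 3 had under 2000 UMIs and fell in the plasma cell-like class. All 4 genes were detected in 24 of the 28. Over their summed primary UMIs, Prtn3 made up 38.0%, 39.6% and 36.8%, Mpo 29.96%, 26.4% and 34.2%, Elane 17.6%, 22% and 14.5%, and Ctsg 14.5%, 12% and 14.5%. These sums rest on few barcodes: the 2 highest held 50.1%, 81.2% and 40.6% of them. The secondary genes were nearly silent there, with 0 UMIs of all 4 in 15 of the 28 and 10 or more Camp UMIs in 2.

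Most of the 28 barcodes carried transcripts of known early myeloid genes that the rule did not use. Ms4a3, a membrane gene of granulocyte and monocyte precursors, was detected in 22 of 28 (331 UMIs), and Myb, a factor of dividing blood progenitors, in 22. Cebpa, which starts the granulocyte program, was detected in 18, the stem and progenitor surface gene Cd34 in 19, and the growth factor receptor genes Kit and Flt3 in 7 and 5. At least 4 of 12 precursor genes were detected in 23 of the 28, with a median of 6. By library these were 8 of 9 barcodes in Ctrl, 3 of 7 in the library labelled HHcy and 12 of 12 in WD, so most of the barcodes in the library labelled HHcy did not reach 4. Of those 7 barcodes 3 had under 2000 UMIs, against 0 of 9 in Ctrl and 0 of 12 in WD. Among 5765 barcodes of 10000 or more UMIs that were rich in neither group, 325 reached 4 and the median was 1. Among the 359 barcodes rich in secondary transcripts alone 30 did, and 4 of 6160 B cell-like cells did. These 3 sets were shallower than the 28, with medians of 14595, 6765 and 6354.5 UMIs against 24910. The part of depth in these counts, also between the libraries, was not tested. Ly6g, a marker of mature neutrophils, had 0 UMIs in all 28.

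The 28 barcodes also carried genes of dividing cells. Mki67 and Top2a, which mark cycling cells, were each detected in 23, and Pcna, a clamp of the DNA replication machinery, in 26. At least 4 of 10 proliferation genes were detected in 24 of 28 (8 of 9, 4 of 7 and 12 of 12 by library), against 54 of 359 barcodes rich in secondary transcripts alone and 788 of the 5765 deep barcodes rich in neither. The 28 barcodes were themselves deep, with a median of 24910 UMIs against 6765 in the 359 and 14595 in the 5765. The part of depth in these counts was not tested. Whether some of the 28 hold more than 1 cell was not tested beyond the multiplet rule. Clustering that left out the 8 members placed 20 of the 28 (7 of 9, 2 of 7 and 11 of 12 by library) in 1 unnamed sub-cluster of 60 cells (23, 12 and 25). Its best list was macrophage/monocyte, but 0 genes of that list were among its 10 leading genes. The basophil genes Prss34 and Mcpt8 were among them, and the name was withheld for that. Among the other 18 barcodes rich in primary transcripts, 8 fell in this sub-cluster and 16 had at least 4 proliferation genes. Summed over that sub-cluster Mpo stood at 1776, 1888 and 3379 CPM and Camp at 11, 10.7 and 7.92 CPM. Mpo was detected there in 11 of 23, 3 of 12 and 12 of 25 cells, so most of its cells lacked it, and 1 cell held 254 of the 353 Mpo UMIs in the library labelled HHcy.

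**Figure D2:**
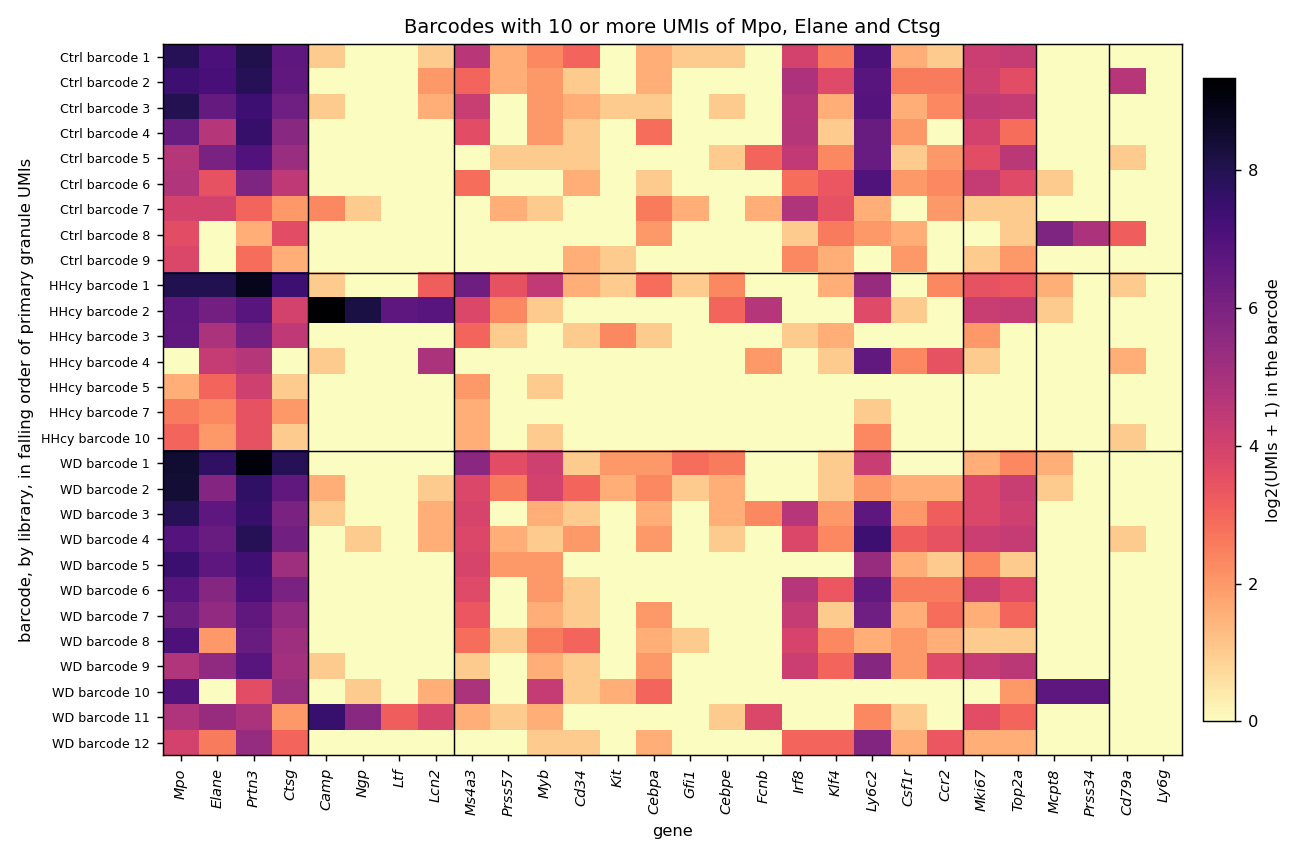
Rows are the 28 barcodes with 10 or more UMIs of Mpo, Elane and Ctsg, grouped by library, columns are genes, and color is log2(UMIs + 1). Ms4a3 is present in 22 rows and Ly6g in none, 2 rows are high in Camp, 2 are high in Mcpt8 and Prss34, and the Irf8 column differs between the libraries.

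Genes of the monocyte and of the neutrophil side of the lineage were unevenly spread over the 28. Irf8 is the factor that favours monocyte and dendritic cell fates over neutrophils. It reached 4 or more UMIs in 8 of 9 barcodes in Ctrl, 0 of 7 in the library labelled HHcy and 7 of 12 in WD. That limit was chosen after the values were seen. Among barcodes rich in neither group, 801 of 5313, 1177 of 6243 and 943 of 5239 reached it. Those were shallower, with medians of 7665, 6735 and 8218 UMIs. Ly6c2 reached 10 UMIs in 6 of 9, 3 of 7 and 8 of 12, and in 12 of the 15 barcodes with 4 or more Irf8 UMIs. Gfi1 and Cebpe, factors of the neutrophil side, were detected in 6 and 10 of the 28. The 15 barcodes with Irf8 had a median of 26703 UMIs and the other 13 one of 14783. Depth and other markers move with the library here. Of the 7 barcodes in the library labelled HHcy, 3 had under 2000 UMIs, 3 were plasma cell-like and 1 was neutrophil-like. That library has the Apoe level given above. At least 4 B cell markers were detected in 3 of 9, 1 of 7 and 0 of 12 barcodes. The part of each of these in the Irf8 counts was not tested.

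Single barcodes show the range. In Ctrl the barcode highest in primary UMIs had 33585 UMIs in all, with Mpo 234, Elane 134, Prtn3 264, Ctsg 103, Ms4a3 23, Irf8 15 and Ly6c2 133, a set with the monocyte-side genes present. The highest in the library labelled HHcy had Mpo 254, Elane 254, Prtn3 455, Ctsg 171, Ms4a3 78, Myb 20 and Irf8 0. The highest in WD had Mpo 355, Elane 206, Prtn3 559, Ctsg 239, Ms4a3 48, Myb 16, Gfi1 6 and Irf8 0. Some of the 28 also carried genes of another lineage. In Ctrl 1 of them had 24 UMIs of the B cell gene Cd79a, and 4 of the 28 had at least 4 of 10 B cell markers (3, 1 and 0 by library). Another 3, all in the library labelled HHcy, fell in the plasma cell-like class with 1996, 1852 and 1492 UMIs.

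Basophil genes accounted for 2 of the 28. In WD 1 barcode had Mpo 118, Ctsg 38, Prtn3 11 and Elane 0 beside 100 UMIs of Mcpt8 and 101 of Prss34, proteases of basophils. In Ctrl 1 barcode had Mpo 11 and Ctsg 11 beside 59 Mcpt8 and 28 Prss34 UMIs. Both lacked Elane, which was at 0 in 3 of the 28. Mcpt8 and Prss34 came next after Ms4a3 among the genes with the highest ratio in primary-only barcodes, and 1 barcode held 60.6% and 78.3% of their UMIs there. Ms4a3 stood first, at 365 CPM in primary-only barcodes against 0.406 CPM elsewhere. The rest of the leading 10 were the histone genes Hist1h1b, Hist1h2ae and Hist1h2ap, and Gria3, Rab44, Myb and Ly6c2. Since the barcodes were chosen by their content, these ranks are descriptive.

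The 6 barcodes rich in both groups hold genes of both waves of granule synthesis by the rule that chose them. All 6 carried Fcnb, the gene of ficolin B, at 828 CPM against 2.48 CPM in all other barcodes, and 5 carried Cebpe, the factor needed for secondary granules. The clearest was in the library labelled HHcy, with Mpo 99, Elane 72, Prtn3 111 and Ctsg 15 beside Camp 643, Ngp 286, Ltf 100 and Lcn2 109. In WD 1 barcode had Mpo 27, Elane 40, Prtn3 29 and Ctsg 3 beside 184 Camp UMIs. The 2 in Ctrl had 22 primary UMIs between them. The 359 barcodes rich in secondary transcripts alone were led by S100a8, Retnlg, Wfdc21, S100a9, Mmp8, Cd177, Ly6g, Mmp9, G0s2 and Ifitm6, neutrophil genes in the main.

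Across groups of cells the 4 primary genes did not keep together. Outside that unnamed sub-cluster, Prtn3 and Ctsg each had a second site without the others, while the Mpo and Elane UMIs of neutrophil-like cells in the library labelled HHcy and in WD came mostly from the barcodes rich in both groups. Named groups carry the suffix -like because they were named from markers.

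**Figure D3:**
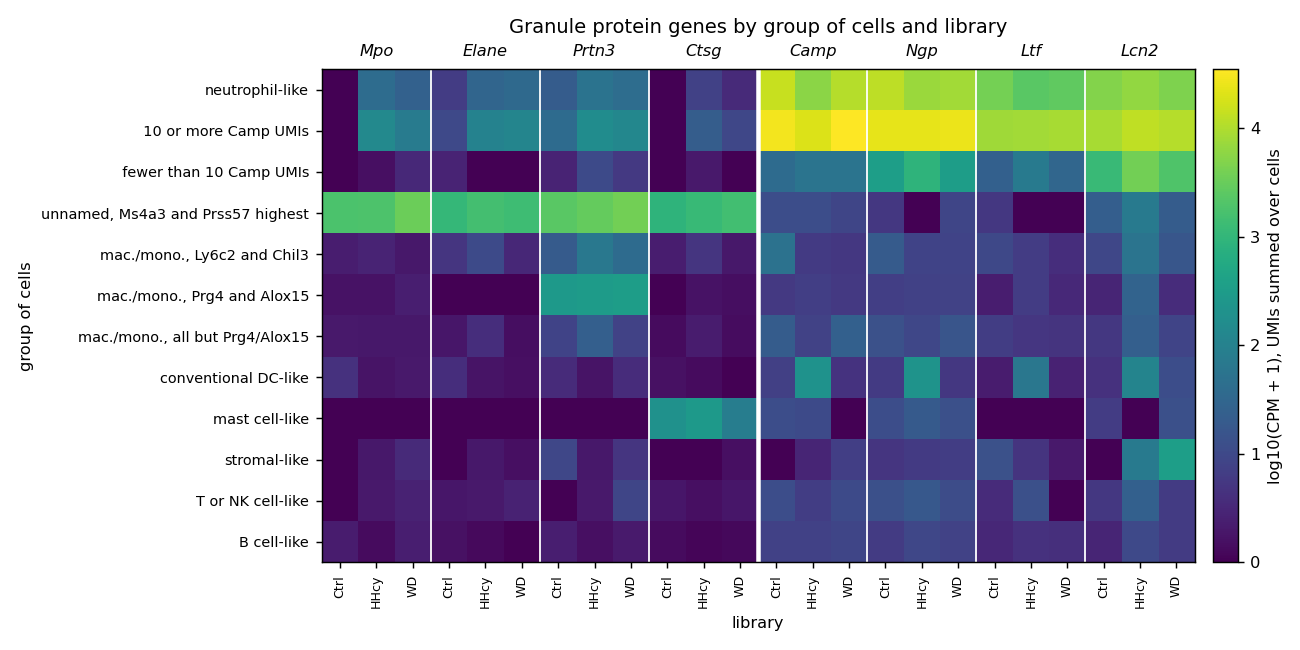
Each cell of the grid is the level of 1 gene in 1 group of cells and 1 library, as log10(CPM + 1) of summed UMIs, with the 4 primary genes left of the thick line and the 4 secondary genes right of it. Prtn3 stands out in the Prg4 and Alox15 cluster at 270, 316 and 343 CPM, Ctsg in mast cell-like cells and Lcn2 in stromal-like cells of WD.

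Prtn3 was high in a cluster of macrophage/monocyte-like cells led by Prg4 and Alox15, genes known from resident macrophages of the body cavities. The cluster held 113, 81 and 119 cells, and Prtn3 had 405 UMIs (270 CPM) in Ctrl, 470 (316 CPM) in the library labelled HHcy and 748 (343 CPM) in WD. The remaining macrophage/monocyte-like cells had 7.29, 22.7 and 6.74 CPM. In the cluster Prtn3 made up 1623 of 1630 primary UMIs, Mpo 5, Ctsg 2 and Elane 0, although Elane is the next gene on the chromosome. Prtn3 was detected in 83.2%, 88.9% and 89.1% of its cells, with a median of 3, 5 and 6 UMIs and at most 18, 23 and 30, so it was a low level in most cells and not a high one in a few. Of the 47 barcodes that reached 10 UMIs through Prtn3 alone, 46 were in this cluster. Against Ctrl the CPM of the library labelled HHcy had a log2 ratio of 0.23 (0.03 to 0.42) and those of WD one of 0.35 (0.17 to 0.53).

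A lower level of Prtn3 was present in a macrophage/monocyte-like cluster of 340, 230 and 270 cells, called here by Ly6c2 and Chil3, genes of inflammatory monocytes. Only 2 of its 5 sub-clusters had both genes among their 10 leading genes (152, 132 and 138 cells), and another, of 121, 41 and 74 cells, was led by Ace, a gene of patrolling monocytes. The Prtn3 level of the whole cluster was 19.4 CPM in Ctrl (59 UMIs), 65.8 CPM in the library labelled HHcy (183 UMIs) and 38.4 CPM in WD (120 UMIs). Against Ctrl the log2 ratio was 1.76 in the library labelled HHcy (1.33 to 2.21) and 0.99 in WD (0.52 to 1.46), and the 5 highest cells held 40.7%, 36.6% and 32.5% of the UMIs. The sub-cluster led by Ace made up 35.6%, 17.8% and 27.4% of the cluster, and the make-up thus differed between the libraries. In the 2 sub-clusters with both genes, a choice made after the data were seen, Prtn3 stood at 42.4, 110.9 and 69.8 CPM, with log2 ratios of 1.39 (0.93 to 1.86) and 0.72 (0.23 to 1.22). In the whole cluster Prtn3 made up 82.6% of primary UMIs, Elane 10.5%, Ctsg 4.11% and Mpo 2.74%. After each cell was thinned to 5000 UMIs, 5.82%, 16.9% and 13.4% of cells had a Prtn3 UMI, so the order of the libraries stayed. In B cell-like cells, which should lack the gene, 0.901%, 0.433% and 0.875% had one at median depths of 6590.5, 6330 and 6172 UMIs.

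**Figure D4:**
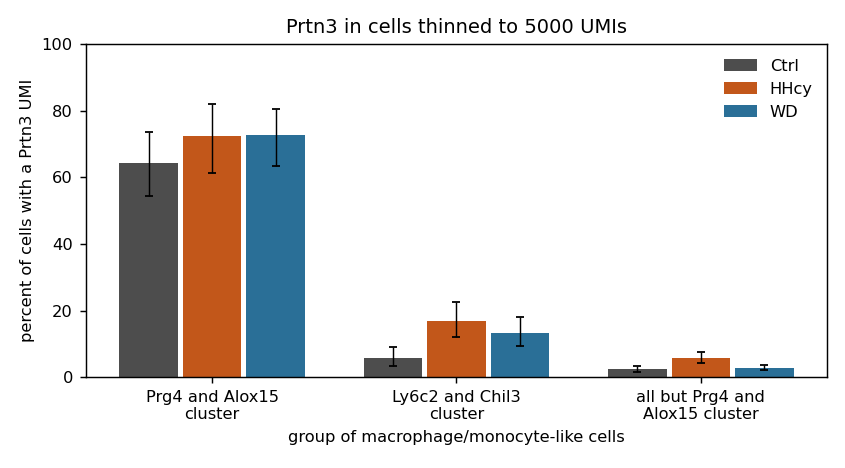
Bars give the percent of cells with a Prtn3 UMI after thinning each cell to 5000 UMIs, by group of macrophage/monocyte-like cells and library, with exact 95% binomial intervals. The Prg4 and Alox15 cluster stands at 64.4%, 72.5% and 72.6%, the Ly6c2 and Chil3 cluster at 5.82%, 16.9% and 13.4%, and all cells outside the first cluster, the second cluster included, at 2.48%, 5.80% and 2.79%.

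Ctsg had its second site in mast cell-like cells, which store proteases of the same family. It had 37 UMIs in 34 cells of Ctrl, 31 in 24 cells of the library labelled HHcy and 7 in 11 cells of WD, or 201, 290 and 84.6 CPM, while Mpo, Elane and Prtn3 had 0 UMIs in all 69 cells. Against Ctrl the log2 ratio was 0.53 in the library labelled HHcy (-0.21 to 1.26) and -1.25 in WD (-2.66 to -0.06), on small counts.

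Lcn2 was the secondary gene with its clearest site outside neutrophil-like cells in stromal-like cells of WD. A lower level was present in the Ly6c2 and Chil3 cluster, at 8.23, 56.1 and 15.4 CPM in 3.24%, 20.4% and 10.4% of cells. B cell-like cells had 1.96, 9.12 and 5.23 CPM. The source of these UMIs was not tested. In stromal-like cells Lcn2 had 0 UMIs in 37 cells of Ctrl, 77 in 116 cells of the library labelled HHcy and 696 in 202 cells of WD. A floor of 3 counts in Ctrl is 12.2 CPM, and the 354 CPM of WD (328 to 381) stood 29.1-fold above it, or 22.4-fold without the highest cell. These folds are not lower bounds, since the exact upper limit for 0 UMIs in Ctrl is 14.98 CPM. In the library labelled HHcy 71 of the 77 UMIs came from 1 cell, and the other 6 stood below the floor of 12.2 CPM. In WD 37 of 202 cells had an Lcn2 UMI, and the 5 highest held 66.4% of the UMIs. Lcn2 is known as an acute-phase gene of many epithelial and stromal cells. Outside the neutrophil-like class 23 barcodes were rich in secondary transcripts, 3 of them stromal-like in WD. A pair of conventional dendritic cell-like barcodes in the library labelled HHcy, the higher with 1116 secondary UMIs, set the Camp level of that class there.

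Secondary UMIs were also found in lymphocytes. In B cell-like cells the shares of Camp, Ngp, Ltf and Lcn2 among secondary UMIs were 41.6%, 32.6%, 13.6% and 12.2% in Ctrl, against 40.7%, 34.1%, 10.9% and 14.3% in neutrophil-like cells. In the library labelled HHcy they were 23.9%, 30.03%, 12.6% and 33.5%, against 26.1%, 33.9%, 10.9% and 29.2%, and in WD 34.3%, 29.8%, 13.3% and 22.7%, against 40.8%, 30.9%, 10.4% and 17.9%. T cell or NK cell-like cells, with 33, 114 and 29 secondary UMIs, differed from this mix in the library labelled HHcy, where Camp made up 9.65% (4.92% to 16.6%), Ltf 20.2% (13.2% to 28.7%) and Lcn2 41.2% (32.1% to 50.8%), and 1 cell held 52 of the 114 UMIs. A Camp UMI was found in 5.23%, 4.85% and 5.73% of B cell-like cells, and the source of these UMIs was not tested.

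Neutrophil-like cells numbered 197 in Ctrl, 424 in the library labelled HHcy and 264 in WD. With multiplets kept they numbered 236, 663 and 427, so the multiplet rule took away more of them in the library labelled HHcy and in WD, and its part in the values below was not tested beyond the summed ratios with multiplets kept. In these cells Camp, an antimicrobial peptide precursor, stood at 14467 CPM in Ctrl, 5677 in the library labelled HHcy and 10742 in WD, and Ngp at 12124, 7378 and 8121. Ltf, which binds iron, stood at 3861, 2363 and 2749 CPM, and Lcn2, which binds bacterial iron carriers, at 5081, 6361 and 4710. Camp, Ngp and Ltf were thus highest in Ctrl, and Lcn2 in the library labelled HHcy. Log2 ratios to Ctrl were -1.35, -0.72, -0.71 and 0.32 for the library labelled HHcy and -0.43, -0.58, -0.49 and -0.11 for WD (the last is 0.031 with size factors), beside medians over all 5744 genes measured of -0.25 and -0.11.

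Past a log2 ratio of 1, Camp alone of the 4 secondary genes was lower in the library labelled HHcy, where 9.4% of all genes were lower and 1.57% higher. None of the 4 passed it in WD, where 3.88% of genes were lower and 1.44% higher. Summed over the 4 genes, the log2 ratio was -0.71 in the library labelled HHcy (-0.72 to -0.69) and -0.43 in WD (-0.45 to -0.41). With size factors in place of total UMIs they moved to -0.38 and -0.29, and all ratios shifted by 0.33 and 0.14.

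Counted as cells, the libraries differed in how many neutrophil-like cells had Camp. At least 10 Camp UMIs were found in 83 of 197 cells in Ctrl (42.1%, 35.1% to 49.4%), 78 of 424 in the library labelled HHcy (18.4%, 14.8% to 22.4%) and 47 of 264 in WD (17.8%, 13.4% to 23.0%). At 1000 UMIs a cell, 42.1%, 18.9% and 18.7% had 2 or more. At least 10 Lcn2 UMIs were found in 50.8%, 53.5% and 36.4%. Within the cells with 10 or more Camp UMIs, the median cell had 130, 108 and 222 Camp UMIs, 111, 169.5 and 149 Ngp UMIs, 43, 57.5 and 64 Ltf UMIs and 47, 88 and 60 Lcn2 UMIs. There the log2 ratios of CPM for the library labelled HHcy were -0.54 for Camp, -0.00 for Ngp, 0.09 for Ltf and 0.51 for Lcn2, and those for WD 0.27, 0.10, 0.21 and 0.27, none past 1, beside 4.71% and 7.7% of all genes higher and 13.2% and 5.2% lower.

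**Figure D5:**
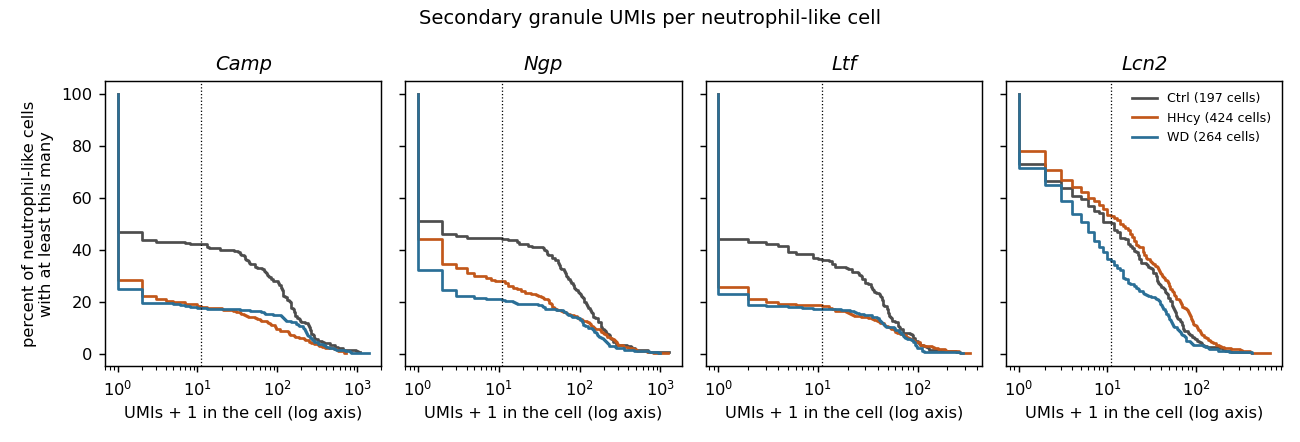
Curves give the percent of neutrophil-like cells (197, 424 and 264) with at least a given number of UMIs of each secondary gene, on a log axis of UMIs plus 1, and the dotted line marks 10 UMIs. At that line the Ctrl curve stands at 42.1% for Camp against 18.4% and 17.8%, while for Lcn2 it stands at 50.8%, between 53.5% and 36.4%.

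Among the cells with fewer than 10 Camp UMIs, Lcn2 was detected in 53.5%, 73.1% and 65.4%, more often than Ngp in 15.8%, 31.5% and 17.5%. Their median Lcn2 count was 1 in Ctrl (114 cells), 6 in the library labelled HHcy (346 cells) and 2 in WD (217 cells). Cells with 10 or more Lcn2 and 0 Camp UMIs were 17 of 197 in Ctrl (8.63%, 5.11% to 13.5%), 120 of 424 in the library labelled HHcy (28.3%, 24.1% to 32.8%) and 37 of 264 in WD (14%, 10.1% to 18.8%). The reverse, 10 or more Camp and 0 Lcn2 UMIs, occurred in 0 cells of each library, with exact upper limits of 1.86%, 0.866% and 1.39%. Among these Camp-low cells 3 of the 4 genes had a log2 ratio past 1 in the library labelled HHcy (Ngp 1.33, Ltf 1.66 and Lcn2 1.68, with Camp 0.56), where 2.51% of all genes were higher and 11.8% lower. In WD the values were 0.52, -0.05, 0.42 and 0.75 for Camp, Ngp, Ltf and Lcn2, none past 1, beside 2.42% of genes higher and 11.5% lower.

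Most primary transcripts in neutrophil-like cells of the library labelled HHcy and of WD came from 1 barcode each. The sum was 28 UMIs in Ctrl, 328 in the library labelled HHcy and 125 in WD, with log2 ratios of CPM of 2.33 and 2.04. In Ctrl the highest barcode had 11 of the 28 UMIs. Of the others, 297 came from 1 barcode of the library labelled HHcy and 99 from 1 of WD, the barcodes rich in both groups described above. Without barcodes rich in primary transcripts the sums were 17, 31 and 12 UMIs and the log2 ratios turned, to -0.36 for the library labelled HHcy (-1.25 to 0.59) and -0.61 for WD (-1.81 to 0.54). Mpo then had 0, 2 and 3 UMIs in 196, 423 and 262 cells. Since the barcodes left out were chosen by their primary UMIs, low values in the rest follow in part from that choice. With all 197, 424 and 264 neutrophil-like cells kept, 0, 3 and 4 had a Mpo UMI. A Prtn3 UMI was found in 8, 20 and 11 of them.

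Other granule genes were taken from lists by granule type, and list counts and medians use log2(CPM + 1). In the library labelled HHcy, 0 of 5 measured primary granule genes passed a log2 ratio of 1, and of 11 other secondary granule genes Lrg1 was higher (1.16) and Fcnb (-2.43) and, at the limit, Chil3 were lower. Tertiary granule genes, such as Mmp9, passed in 0 of 5, and of 5 secretory vesicle genes Fpr1, a receptor for bacterial peptides, was higher (1.03). The list medians were -0.14, 0.07, -0.01 and -0.02, against -0.25 for all genes. In WD none of the measured genes of these lists passed (0 of 5, 0 of 11, 0 of 5 and 0 of 5).

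Proliferation genes, markers of dividing precursors, were lower together with Camp in the library labelled HHcy, and their part in the Camp value was not tested. Mki67 stood at 228 CPM in neutrophil-like cells of Ctrl and 44.5 CPM in the library labelled HHcy, and Top2a at 206 and 34.4 CPM. All 9 measured proliferation genes had a log2 ratio under -1 there, with a median of -2.09, where 9.4% of all genes did. In WD the median was -0.70 and Birc5 alone passed (1 of 9). Among 9 measured granulocyte transcription factors, 3 were lower in the library labelled HHcy, Klf4 (-1.64), Myb (-1.81) and Cebpa (-1.47), and Irf8 was lower in WD (-1.70). Genes of mature neutrophils, Cxcr2, Retnlg and Il1b among them, passed in 0 of 9 in either library, with medians of 0.29 and 0.06.

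The genes most like the members were ranked by Pearson correlation over 27 sums of UMIs by class and library, from 11 classes with at least 20 cells, on log2(CPM + 10). Nearest to the summed secondary genes were Fosl1 (0.96), S100a8, Retnlg, Ly6g and S100a9 (each 0.95). Nearest to the summed primary genes were Arap3 (0.80), Rffl (0.76), Rab44 (0.75), Cd33 (0.74) and Pilrb2 (0.74). The 11 classes are the named ones. The unnamed cells, left out here, held 91.3% of Mpo, 86.2% of Elane, 59.3% of Prtn3 and 90.1% of Ctsg UMIs. The primary ranks were thus made without most of the primary transcripts. The sums share libraries and depth, and few barcodes set the primary sum in some classes. Its own members reached 0.41 for Mpo, 0.49 for Elane, 0.58 for Prtn3 and 0.71 for Ctsg.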

How the data were processed

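Aortic CD45+ cells of 3 libraries were measured by droplet sequencing (Chromium 3′ v3, mm10, per the labels and the submitters' processing notes). The authors deposited UMI counts per gene and barcode, not normalized. The submitters' processing notes name Cell Ranger 2.2.0 and the file header 4.0.0. The deposited counts were used as they are. Barcodes with at least 200 genes and at most 10% mitochondrial UMIs were kept. Those with 5 of 10 markers of 2 or more of 5 lineages were left out as multiplets, and no doublet caller was run. Cells were clustered without the 8 members (2000 variable genes, 30 components, 20 neighbours, Leiden resolution 1.0), and clusters were named from at least 3 markers detected in at least 25% of their cells. Clusters whose 10 leading genes held more markers of another list stayed unnamed. So did shallow clusters with no marker of their own list among those genes. CPM are UMIs of the summed cells scaled to a total of 1000000. A gene was counted as higher or lower at a log2 ratio of 1 or more of CPM plus 1 among genes with a mean of at least 10 CPM, and single ratios are without that 1. Shares have Clopper-Pearson intervals, CPM exact Poisson intervals and ratios exact conditional intervals, which cover counting error only. The floor for a count of 0 is 3 counts.

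Named genes are the members, the genes of lists, the 10 leading genes of each set of barcodes and the 5 most like each sum. Members and lists were chosen with earlier results of these data known. Count intervals were tested on simulated data. Alternatives were other limits, thinning, size factors, kept multiplets and another resolution, and 6 were chosen after seeing the data. Python 3.11.15, numpy 2.4.6, scipy 1.17.1, scikit-learn 1.9.0, leidenalg 0.10.2 and igraph 0.11.9 were used. Sequences and starts are RefSeq, GRCm38.p6, and all 8 members matched.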

Additional observations from a re-analysis of the deposited data

Results flagged for a closer look

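The barcodes left out as multiplets held granule transcripts above the control level in the library labelled HHcy. The main values leave these barcodes out. Barcodes rich in secondary transcripts were 18 of 612 multiplets in Ctrl (2.94%, 1.75% to 4.61%), 153 of 1721 in the library labelled HHcy (8.89%, 7.59% to 10.3%) and 79 of 1370 in WD (5.77%, 4.59% to 7.14%). Barcodes rich in primary transcripts were 0 of 612 (exact upper limit 0.601%), 7 of 1721 (0.407%) and 4 of 1370 (0.292%).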

How the results depend on the processing

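No paired analysis was possible because each group has 1 library and the labels give no replicate numbers. Of the main results under their alternatives, 76 values moved by less than their interval, 32 moved further and 2 turned beyond it. Counts of barcodes without the library labelled HHcy have no interval, and a fold limit was used for them instead. Among the 76, the log2 ratio of the share of barcodes rich in primary transcripts, whose interval includes 0, changed sign with thinning for the library labelled HHcy (0.08) and with a limit of 0.1% of the UMIs for WD (-0.08). The share of barcodes rich in primary transcripts moved with a limit of 20 UMIs to 0.166% in Ctrl and 0.225% in WD, and with thinning to 0.15% in Ctrl. The percent of primary UMIs held by such barcodes was 82.7%, 75.6% and 83.5% (Ctrl, HHcy and WD) with up to 20% mitochondrial UMIs, 77.7%, 73.9% and 79.4% with multiplets kept, and 56.2%, 54.4% and 68.0% with thinning. It was 77.1% in Ctrl and 80.6% in WD at a limit of 20 UMIs, 70.5% in the library labelled HHcy at 5 UMIs, and 80.8% in WD at 0.1% of a barcode's UMIs. The share of barcodes rich in secondary transcripts was 4.12% in the library labelled HHcy and 2.41% in WD with multiplets kept, and 2.25% in the former with thinning. Barcodes rich in secondary transcripts fell to 182 without the library labelled HHcy. The log2 ratio of summed primary UMIs in neutrophil-like cells was 1.57 for the library labelled HHcy with thinning and 0.48 for WD with multiplets kept, and it turned to -0.36 and -0.61 without the barcodes rich in primary transcripts. The ratio of summed secondary UMIs was, for the library labelled HHcy and WD, -0.38 and -0.29 with size factors, -0.95 and -0.89 with thinning, -0.33 and -0.31 with up to 20% mitochondrial UMIs, -0.99 and -0.57 with multiplets kept, and -0.30 and -0.27 at resolution 2, lower than Ctrl throughout.

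For single genes, the ratio turned for Elane in WD with multiplets kept (-0.041) and for Lcn2 in WD with size factors (0.031). Within cells with fewer than 10 Camp UMIs it turned for Camp (0.56), Ngp (1.33) and Ltf (1.66) in the library labelled HHcy and for Camp (0.52), Ltf (0.42) and Lcn2 (0.75) in WD. Within cells with 10 or more it turned for Ltf in the library labelled HHcy (0.086) and for Camp (0.27), Ngp (0.10), Ltf (0.21) and Lcn2 (0.27) in WD. The split was made on Camp counts, so the Camp ratios within each part depend on the limit that defined it. The cause of these turns was not tested. Ratios of Mpo and Ctsg have no value because Ctrl is at 0. Settings on Camp-high cells, on leaving out the library labelled HHcy, on leaving out barcodes rich in primary transcripts and on sub-clusters were chosen after seeing the data. The number of primary-rich barcodes, 7 to 20 in a library, limits every share above.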
